A study of Mus musculus with 12 samples.

Results

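The genes described here are 8 genes of the fasting fuel switch that peroxisome proliferator-activated receptors (PPARs) drive in heart muscle: Ppara, Ppargc1a, Pdk4, Mlycd, Cpt1a, Acot1, Ucp3 and Angptl4. They were taken by gene symbol, and all 8 were found among the 17052 genes of the deposited table and passed the filter on low values. Ppara encodes a nuclear receptor that binds fatty acids, and with its retinoid X receptor partner and the coactivator encoded by Ppargc1a it turns on genes of fatty acid use. In fasting the heart burns more fatty acid and less glucose; PDK4 then phosphorylates and shuts the pyruvate dehydrogenase complex, while malonyl-CoA, which blocks fatty acid entry into mitochondria, is removed. The hypertrophied heart under pressure overload is known for the opposite shift, towards glucose.

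The tissue was left ventricle of 12 C57BL/6 mice, with 3 mice in each of 4 groups, and its messenger RNA was sequenced. The TAC+pimobendan and TAC+control mice were operated on at 8 weeks of age, when a clip narrowed the aortic arch (transverse aortic constriction, TAC, a model of pressure overload), and the Sham+pimobendan and Sham+control mice had the same approach without the ligation. Pimobendan, a calcium sensitizer and phosphodiesterase 3 inhibitor used in heart failure, was given at 1 mg/kg/day for 4 weeks to the TAC+pimobendan and Sham+pimobendan mice, the control mice carry no drug in their labels, and all mice were sampled at 12 weeks. The feeding state of the mice at sampling is not given in the sources used here. No allele, transgene or Cre is named for any group. Levels are FPKM, fragments scaled to transcript length and to the library's total, so they can be set side by side between genes. A gene was called when its adjusted p was under 0.05 in limma, a linear model fitted to log2(FPKM + 1) over 11415 genes, and every log2 fold change below is on that scale.

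The libraries carried the ventricular muscle markers at a summed 59900 to 74200 FPKM. Skeletal muscle markers summed to 1.68 to 4.33 FPKM and the markers of white adipocytes, which also use Angptl4, to 0.0 to 3.86 FPKM, with Adipoq listed at 0 in 3 libraries and at no more than 0.68 FPKM in the others. The libraries differed in their trend with base composition. Spearman's rho across genes, between the GC content of the transcript and how far a library lay from the average library, was -0.523 to -0.198 in TAC+pimobendan, against 0.0105 to 0.283 in TAC+control, 0.143 to 0.53 in Sham+pimobendan and -0.351 to 0.459 in Sham+control. All 3 TAC+pimobendan libraries were negative, all TAC+control and Sham+pimobendan libraries were positive, and Sham+control replicate 1, at -0.351, lay within the TAC+pimobendan range. With each library corrected for this trend, 0 of the genes tested were called in any comparison, and this holds for every call given below. The trend went with the groups when TAC+pimobendan was compared with TAC+control or Sham+pimobendan. The correction there also removes any group difference that follows GC content, and such a difference cannot be told apart from a technical trend. The erythroid markers, haemoglobin genes and Alas2, summed to 1140 to 2280 FPKM in TAC+pimobendan, 4200 to 6700 FPKM in TAC+control, 452 to 1910 FPKM in Sham+pimobendan and 1550 to 3060 FPKM in Sham+control, and their part in the comparisons with TAC+control was not tested.

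The 250 bases before the start are shown for Pdk4, the most abundant of the 8 genes, and for Ucp3 and Acot1 as examples of genes that varied with it between mice of a group, with r of 0.737 and 0.651. Other pairs of the 8 varied together as closely, as given further below. The sequences are RefSeq's for GRCm38.p6, read 5′ to 3′ on the strand of the gene. Capitals mark AGGTCA, the half-site that PPARs and many other nuclear receptors bind, and the search covered both strands. The Pdk4 stretch is chr6:5496279-5496528 on the minus strand, that of Ucp3 is chr7:100472741-100472990 on the plus strand, and that of Acot1 is chr12:84009252-84009501 on the plus strand.
Pdk4: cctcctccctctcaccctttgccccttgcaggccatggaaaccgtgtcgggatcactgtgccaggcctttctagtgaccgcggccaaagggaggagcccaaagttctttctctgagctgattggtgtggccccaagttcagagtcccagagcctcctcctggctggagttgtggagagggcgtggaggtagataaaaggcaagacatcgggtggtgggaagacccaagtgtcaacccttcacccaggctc
Ucp3: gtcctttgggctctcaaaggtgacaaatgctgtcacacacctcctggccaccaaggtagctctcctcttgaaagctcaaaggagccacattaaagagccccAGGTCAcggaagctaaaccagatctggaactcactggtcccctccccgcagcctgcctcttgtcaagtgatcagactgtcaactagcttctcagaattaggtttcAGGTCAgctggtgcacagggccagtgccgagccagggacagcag
Acot1: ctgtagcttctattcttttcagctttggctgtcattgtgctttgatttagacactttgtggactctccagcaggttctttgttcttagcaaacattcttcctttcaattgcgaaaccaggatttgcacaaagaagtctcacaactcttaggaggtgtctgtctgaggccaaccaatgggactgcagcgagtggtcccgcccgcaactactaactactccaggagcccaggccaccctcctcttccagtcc
The gene bodies in RefSeq are chr6:5483351-5496278 for Pdk4, chr7:100472991-100486432 for Ucp3, chr12:84009502-84017670 for Acot1, chr17:33774900-33781575 for Angptl4, chr8:119394852-119421838 for Mlycd, chr19:3322326-3385735 for Cpt1a, chr15:85734910-85806851 for Ppara and chr5:51454249-52115853 for Ppargc1a.
The Ucp3 stretch held AGGTCA at 149 and at 44 bases before the start, and the stretches of Pdk4 and Acot1 held none. Of the 7 genes with an entry (there is none for Angptl4), Ucp3 and Cpt1a held the half-site, which 14.0% of the 32851 windows of this length hold. The Cpt1a window, chr19:3323051-3323300, lies inside the gene body given above, so its half-site is before a start within the gene. The windows of Ppara and Ppargc1a also lie inside their gene bodies, and that of Mlycd runs into its gene body. The direct repeat AGGTCANAGGTCA, with overlap counted, was in 0 of the 7 and in 0.0335% of all windows.

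Averaged over the 12 mice, Pdk4 was the most abundant of the 8 genes at 128.3 ± 80.4 FPKM, before Mlycd at 78.3 ± 12.8 FPKM, Ucp3 at 26.9 ± 10.9 FPKM, Acot1 at 20.1 ± 7.53 FPKM, Cpt1a at 17.6 ± 5.20 FPKM, Ppargc1a at 14.9 ± 4.07 FPKM, Ppara at 12.96 ± 1.94 FPKM and Angptl4 at 5.42 ± 2.75 FPKM (SD, n = 12). Within groups, the ranges of Pdk4 and Mlycd overlapped in TAC+pimobendan, TAC+control and Sham+control, and Pdk4 was above Mlycd in every mouse of Sham+pimobendan. The genes from Ucp3 to Ppara overlapped with their neighbours in TAC+pimobendan and TAC+control. In the Sham groups the ranges of Cpt1a and Ppara, which neighbour each other in Sham+pimobendan and Sham+control, did not overlap. Angptl4 was lowest in every group, and its range did not reach that of the gene above it.

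**Figure D1:**
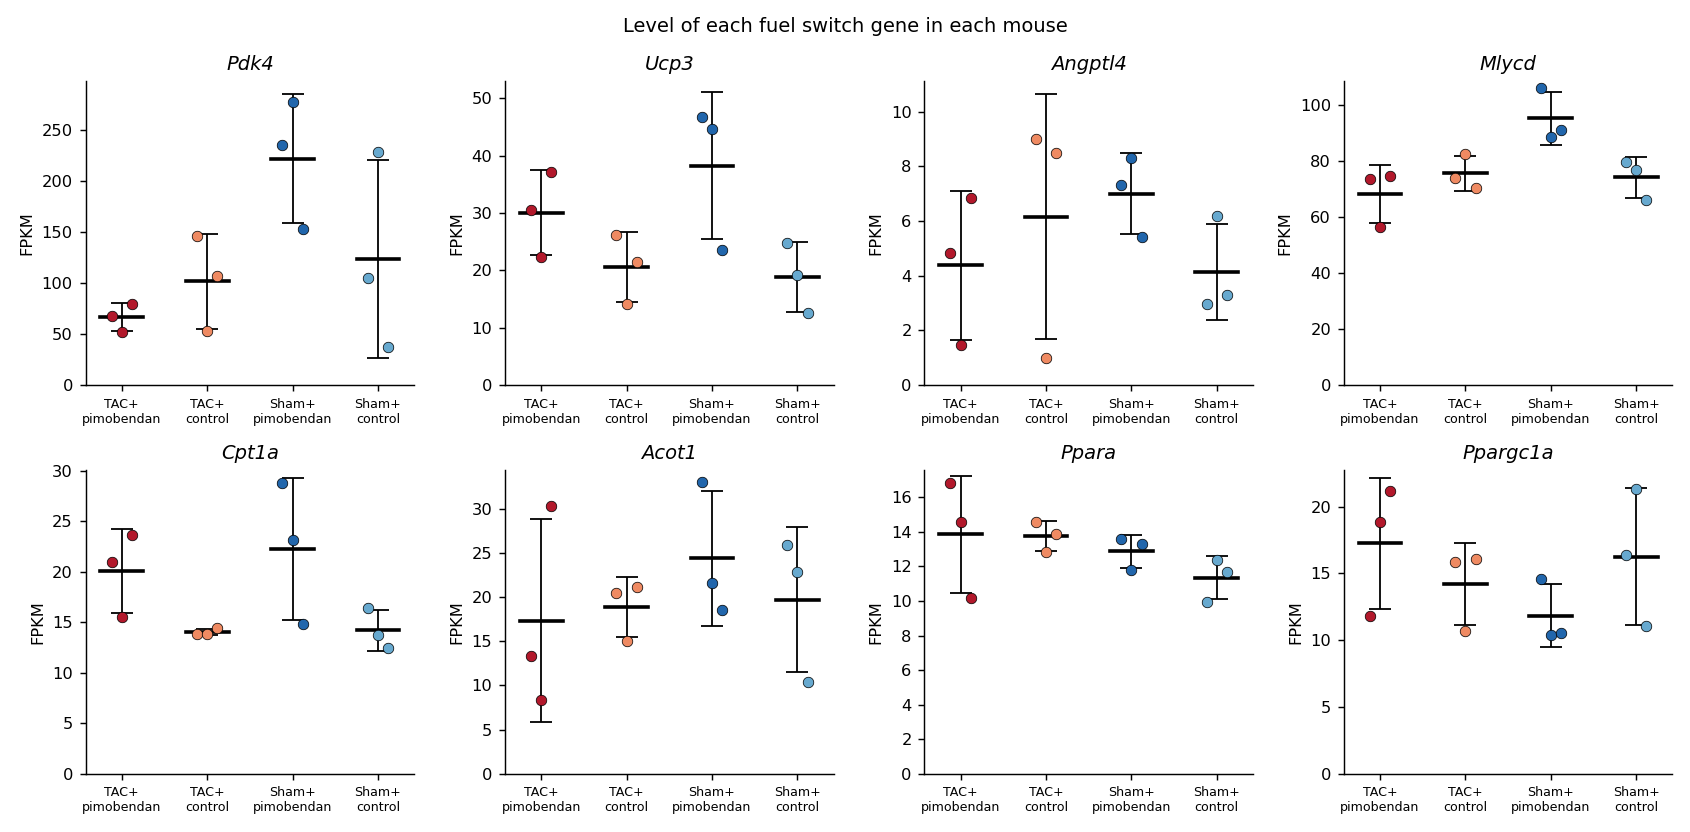
FPKM (linear axes from 0) of each gene in each mouse, with 3 mice per group; the line is the group mean and the bar its SD. Pdk4 lies between 52.36 and 79.77 FPKM in the TAC+pimobendan mice and between 152.56 and 276.9 FPKM in the Sham+pimobendan mice, and the Sham+control mice span 36.78 to 228.42 FPKM.

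Most of these genes varied widely between mice of the same group. The within-group SD of log2(FPKM + 1) was 0.835 for Angptl4, 0.796 for Pdk4 and 0.607 for Acot1, against a median of 0.152 over the 11415 genes tested. Ranked among all of these genes, the percentile of this SD was 99.6 for Angptl4, 99.5 for Pdk4, 99.0 for Acot1, 97.7 for Ucp3, 95.7 for Ppargc1a and 91.2 for Cpt1a. Ppara at 72.5 and Mlycd at 55.0 were nearer the middle. The percentile is over genes of all levels, and low levels such as those of Angptl4 carry more sampling noise. Between the lowest and the highest mouse, Angptl4 spanned 9.01-fold, Pdk4 7.53-fold, Acot1 3.95-fold and Ucp3 3.73-fold, while Mlycd and Ppara spanned 1.88-fold and 1.69-fold. The 9 close paralogs spanned 1.32-fold (Pdk2) to 1.99-fold (Pparg), with Cpt1b at 1.4-fold, Ucp2 at 1.68-fold and Acot2 at 1.9-fold.

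The regulators come first. Ppara had 16.83, 14.56 and 10.19 FPKM in the TAC+pimobendan mice, 14.56, 12.81 and 13.89 FPKM in TAC+control, 13.57, 11.80 and 13.28 FPKM in Sham+pimobendan and 9.97, 12.37 and 11.68 FPKM in Sham+control. All TAC+control mice were above all Sham+control mice, with a log2 fold change of 0.26 ± 0.15 (SE) and an adjusted p of 0.664 in limma. This ordering without overlap, in the higher direction, was seen for 1 of the 8 genes and for 3.0% of all genes tested. Ppargc1a, whose protein coactivates PPARs and estrogen-related receptors, had 11.78, 18.83 and 21.15 FPKM in TAC+pimobendan, 15.87, 10.67 and 16.08 FPKM in TAC+control, 14.59, 10.40 and 10.55 FPKM in Sham+pimobendan and 16.40, 21.31 and 11.05 FPKM in Sham+control. Its groups overlapped in all 4 pairwise comparisons, and it was the 1 gene of the 8 with a lower mean in Sham+pimobendan than in Sham+control. Its fold change between those groups was -0.40 ± 0.25, with an adjusted p of 0.91 in limma. Of the 3 PPAR mRNAs together, Ppara held 38.7 ± 2.67% of the summed FPKM in TAC+pimobendan, 37.3 ± 0.873% in TAC+control, 33.1 ± 1.98% in Sham+pimobendan and 32.5 ± 2.0% in Sham+control (SD, n = 3 each). Ppard, at 15.6 FPKM over the 12 mice, was the nearest to it in level, and Pparg was at 8.06 FPKM.

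Pdk4, the kinase that closes the entry of pyruvate into the citric acid cycle, had 67.94, 52.36 and 79.77 FPKM in the TAC+pimobendan mice. It had 145.64, 53.07 and 106.64 FPKM in TAC+control, 234.49, 276.90 and 152.56 FPKM in Sham+pimobendan, and 104.50, 228.42 and 36.78 FPKM in Sham+control. Every TAC+pimobendan mouse was below every Sham+pimobendan mouse, the TAC+control mice overlapped with the TAC+pimobendan and the Sham+control mice, and the Sham+control mice spanned most of the range. The log2 fold change of TAC+pimobendan over Sham+pimobendan was -1.69 ± 0.52 (95% interval -2.81 to -0.57), with an unadjusted p of 0.00626 and an adjusted p of 0.0732 in limma, so it missed the threshold. It passed when Sham+control replicate 2 (adjusted p = 0.049) or replicate 3 (adjusted p = 0.0384) was left out of the limma fit. In Sham+pimobendan over Sham+control the fold change was 1.15 ± 0.52, with an adjusted p of 0.91. It was 0.47 without Sham+control replicate 3 and 1.77 without Sham+control replicate 2, since those mice were the lowest and the highest of their group. The 2 drug comparisons differed by -1.66 ± 0.73 on the log2 scale, as the interaction (the effect of pimobendan after TAC minus that after sham), with an adjusted p of 0.226. This difference was -2.28 without Sham+control replicate 2 and -0.98 without Sham+control replicate 3. TAC+control over Sham+control gave -0.03 ± 0.52, which turned to 0.04 with median-ratio scaling. It was 0.59 without Sham+control replicate 2, -0.71 without Sham+control replicate 3, -0.35 without TAC+control replicate 1 and 0.37 without TAC+control replicate 2.

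The share of Pdk4 in its family is drawn from the same Pdk4 values and largely repeats their ordering. Between mice Pdk2 spanned only 1.32-fold and Pdk1 1.37-fold, against 7.53-fold for Pdk4. PDK1, PDK2 and PDK3 act on the same enzyme complex, and Pdk2 was the most abundant at 389.0 FPKM over the 12 mice, against 38.0 FPKM for Pdk1 and 1.73 FPKM for Pdk3. The share of Pdk4 in the summed FPKM of the 4 kinases was 13.3%, 12.6% and 17.6% in the TAC+pimobendan mice, 25.5%, 10.3% and 19.1% in TAC+control, 34.3%, 38.7% and 26.4% in Sham+pimobendan and 20.0%, 33.0% and 7.97% in Sham+control. The shares of TAC+pimobendan lay below those of Sham+pimobendan in every mouse, and those of Sham+control spanned most of both ranges. None of 18 other genes of the pyruvate dehydrogenase switch was called in any comparison. The smallest p values among them with pimobendan after TAC were those of Pdp1, a phosphatase that reopens the complex, at 0.50 ± 0.15 on the log2 scale (adjusted p = 0.0693), and of Pdhb, a subunit of its first enzyme, at -0.22 ± 0.08 (adjusted p = 0.109), in limma.

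**Figure D2:**
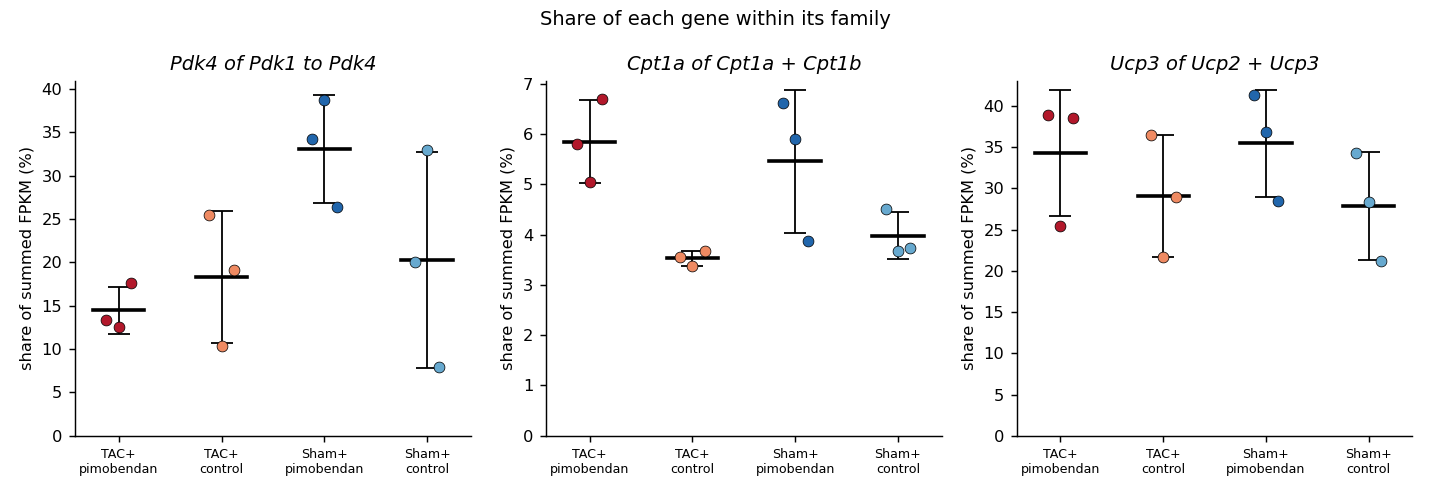
Share (%) of Pdk4, Cpt1a and Ucp3 in the summed FPKM of their families, per mouse, with the group mean and SD of 3 mice. The share of Cpt1a is 5.05% to 6.7% in TAC+pimobendan mice and 3.37% to 3.67% in TAC+control mice.

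Mlycd and Cpt1a act on fatty acid entry. Mlycd encodes malonyl-CoA decarboxylase, which breaks down the inhibitor of carnitine palmitoyltransferase 1. It had 73.45, 56.45 and 74.72 FPKM in TAC+pimobendan, 73.89, 82.53 and 70.42 FPKM in TAC+control, 106.03, 88.70 and 90.99 FPKM in Sham+pimobendan and 79.59, 76.92 and 65.96 FPKM in Sham+control. Each TAC+pimobendan mouse lay below each Sham+pimobendan mouse, and each Sham+pimobendan mouse above each Sham+control mouse. Mlycd fell in TAC+pimobendan against Sham+pimobendan, with a log2 fold change of -0.48 ± 0.12 (95% interval -0.74 to -0.22) with an adjusted p of 0.0412 in limma. This was 1 called gene of the 8 and the single call among them in any comparison, against 4.89% of all genes tested in either direction and 0.245% lower. The transcript of Mlycd has the highest GC content of the 8 genes, at 60.13%, and what part this had in the call was not tested. The call did not hold with the GC correction, where the change was -0.36 with an adjusted p of 0.282 in limma. It was also lost when any of 8 of the 12 libraries was left out: Sham+control replicate 2 (adjusted p in limma of 0.0565), TAC+control replicate 1 (0.0533) or 3 (0.0524), Sham+pimobendan replicate 1 (0.0844), 2 (0.084) or 3 (0.157), and TAC+pimobendan replicate 2 (0.175) or 3 (0.152). The fold change over these fits was -0.55 to -0.35. An ordering of Sham+pimobendan above Sham+control without overlap was seen in 1 of the 8 genes and in 6.16% of all genes tested. Pimobendan in sham mice gave 0.36 ± 0.12, with an unadjusted p of 0.0104 and an adjusted p of 0.91, and the interaction was -0.51 ± 0.17 with an adjusted p of 0.128.

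Cpt1a encodes the liver-type form of the outer membrane enzyme that hands long-chain fatty acids to carnitine, beside the muscle form Cpt1b, which was about as abundant as Pdk2 at 357.4 FPKM. Cpt1a had 21.00, 15.48 and 23.69 FPKM in TAC+pimobendan, against 13.87, 13.88 and 14.43 FPKM in TAC+control. It had 28.78, 23.12 and 14.87 FPKM in Sham+pimobendan, against 16.39, 13.75 and 12.43 FPKM in Sham+control. All TAC+pimobendan mice exceeded all TAC+control mice, an ordering seen in 23.3% of all genes tested in this comparison, and the Sham groups overlapped. The log2 fold change with pimobendan was 0.46 ± 0.20 after TAC, with an unadjusted p of 0.0385 and an adjusted p of 0.163, and 0.58 ± 0.20 after sham, with an adjusted p of 0.91. Averaged over both surgeries it was 0.52 ± 0.14 with an adjusted p of 0.302, so it was not called, and 0.00876% of all genes were. The share of Cpt1a in Cpt1a plus Cpt1b was 5.81%, 5.05% and 6.7% in TAC+pimobendan, against 3.55%, 3.37% and 3.67% in TAC+control. In the Sham+pimobendan mice it was 6.61%, 5.9% and 3.87%, against 4.51%, 3.68% and 3.73% in Sham+control. Cpt1b itself averaged 320.5 ± 25.9 FPKM in TAC+pimobendan and 384.8 ± 11.8 FPKM in TAC+control (SD, n = 3 each), with a log2 fold change of -0.27 ± 0.08 and an adjusted p of 0.0623.

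Acot1 and Ucp3 are PPAR targets tied to a surplus of fatty acid in the cell. Acot1 encodes a cytosolic thioesterase that releases free fatty acid from acyl-CoA, and its sequence is close to that of Acot2, so the counting could have split reads between them and the values of both are uncertain. It had 13.30, 8.36 and 30.29 FPKM in TAC+pimobendan, 20.45, 14.99 and 21.14 FPKM in TAC+control, 33.04, 21.62 and 18.48 FPKM in Sham+pimobendan and 25.94, 22.84 and 10.36 FPKM in Sham+control. The groups overlapped in all 4 pairwise comparisons, with the smallest adjusted p of the 4, in limma, being 0.383 for TAC+pimobendan against Sham+pimobendan. Ucp3 encodes an inner membrane protein of muscle mitochondria, which rises with fatty acid supply. It had 30.59, 22.37 and 37.12 FPKM in TAC+pimobendan, against 26.25, 14.10 and 21.52 FPKM in TAC+control. In the sham mice it had 46.69, 44.58 and 23.47 FPKM with pimobendan, against 24.69, 19.15 and 12.53 FPKM in Sham+control. Both pairs overlapped through 1 mouse each, TAC+pimobendan replicate 2 and Sham+pimobendan replicate 3, which lay below the highest control mouse of their surgery. The log2 fold change with pimobendan was 0.53 ± 0.30 after TAC (adjusted p of 0.276) and 0.97 ± 0.30 after sham (unadjusted p of 0.00659, adjusted p of 0.91). Their mean was 0.75 ± 0.21 with an adjusted p of 0.308, not called in limma.

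Angptl4 encodes a secreted inhibitor of lipoprotein lipase, the enzyme that frees fatty acids from lipoproteins. It had 4.84, 1.46 and 6.85 FPKM in TAC+pimobendan, 9.01, 1.00 and 8.48 FPKM in TAC+control, 7.33, 8.29 and 5.40 FPKM in Sham+pimobendan and 2.97, 6.17 and 3.28 FPKM in Sham+control. The second mouse of both TAC groups was low, and every pair of groups overlapped. The fold changes lay between -0.71 and 0.67 in the 4 pairwise comparisons, each with an SE of 0.55. Lpl, the target of its protein, was at 1391 ± 338 FPKM in TAC+pimobendan and 827.6 ± 96.3 FPKM in TAC+control (SD, n = 3 each), and rose by 0.73 ± 0.17 on the log2 scale with an adjusted p of 0.0474. This is a gene outside the 8, at 784.4 FPKM in Sham+pimobendan and 1009 FPKM in Sham+control on average, and the call was lost with GC correction. Because the samples are whole ventricle, fewer cells of a type and less RNA per cell cannot be told apart for any of these genes.

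**Figure D3:**
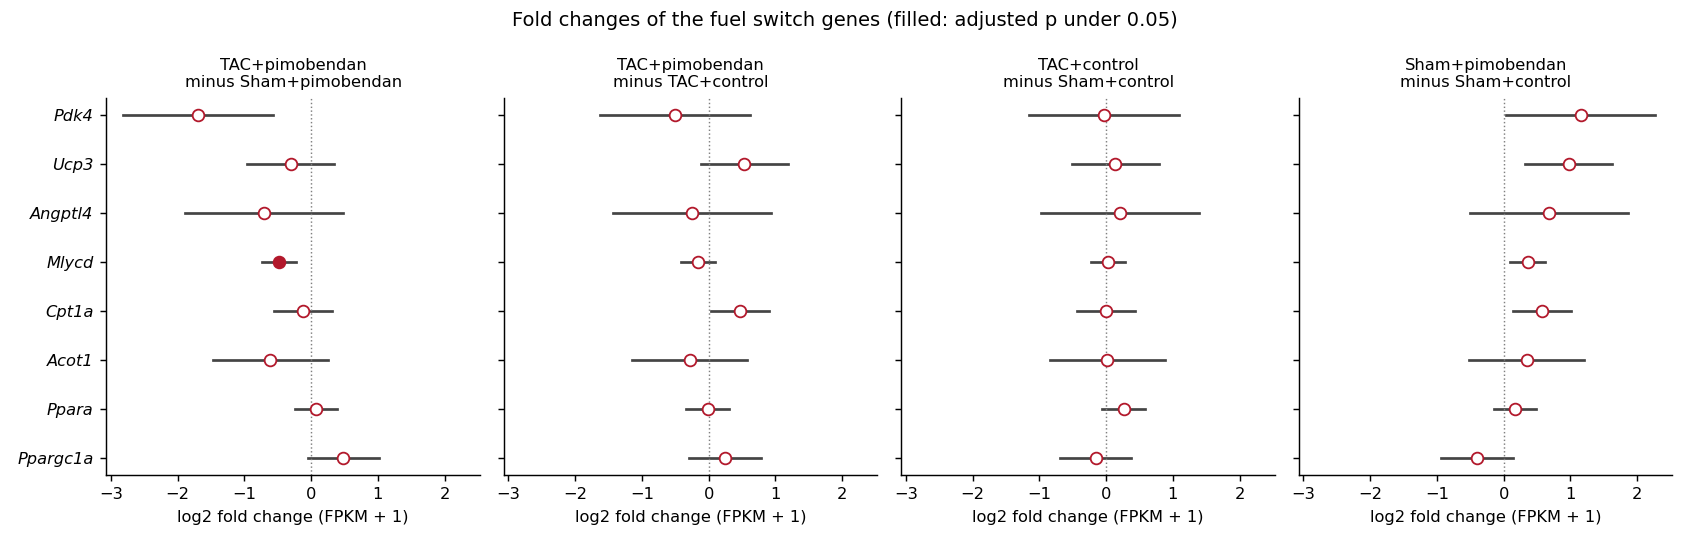
Log2 fold change on FPKM + 1 with its 95% interval in limma for each gene and comparison; a filled point has an adjusted p under 0.05. Mlycd in TAC+pimobendan minus Sham+pimobendan, at -0.48, is the only filled point.

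Set beside all genes, the 8 genes gave 7 positive fold changes in Sham+pimobendan minus Sham+control, and 4 of them (Pdk4, Ucp3, Mlycd and Cpt1a) had an unadjusted p under 0.05, which 4.54% of all genes had. The median was 0.466 for the 8 and 0.0128 for all genes tested. No gene of any kind was called there in limma, at a smallest adjusted p of 0.91. The 8 genes were chosen with earlier results of these data known, so the shares and medians set beside all genes here are descriptions and test nothing. Several of the 8 also varied together between mice of a group, as given below, so they are not separate observations. In TAC+pimobendan minus Sham+pimobendan the fold change was negative for 6 of the 8 and the median was -0.394, against -0.00608 for all genes; 1 of the 8, Mlycd, was called, and 2, Pdk4 and Mlycd, had an unadjusted p under 0.05, as 22.9% of all genes did. Non-overlap with the lower level in TAC+pimobendan was seen in 2 of the 8 and in 9.35% of all genes. In TAC+pimobendan minus TAC+control the median was -0.0846 for the 8 and 0.0954 for all genes, which moved to -0.00598 under median-ratio scaling. None of the 8 were called there, against 3.27% of all genes tested. The residuals of same-numbered mice of the TAC groups correlated weakly (r of 0.101 to 0.208), while differently numbered mice of the Sham groups reached 0.434. With the replicate number as a block within the TAC groups, an alternative chosen after seeing this, 694 genes and 0 of the 8 were called. With this block the adjusted p in limma was 0.232 for Ucp3, 0.172 for Cpt1a and 0.555 for Pdk4. Without a block, 1 of the 8, Cpt1a, had an unadjusted p under 0.05 in this comparison, as 26.6% of all genes did. In TAC+control minus Sham+control, where 0.0% of the genes were called, 0 of the 8 had an unadjusted p under 0.05 and 8.33% of all genes did. The median of the 8 was 0.0242, against -0.0565 for all genes, and the signs of 4 of the 8 genes (Pdk4, Mlycd, Cpt1a and Acot1) depended on the scaling. The interaction was negative for 7 of the 8, with a median of -0.476 against 0.0664 for all genes; 2 of the 8, Pdk4 and Mlycd, had an unadjusted p under 0.05, as 20.3% of all genes did, and limma called no gene. For the mean of both pimobendan effects 2 of the 8, Ucp3 and Cpt1a, had an unadjusted p under 0.05, as 12.0% of all genes did. For the mean of both TAC effects these were Pdk4 (-0.86 ± 0.37) and Mlycd (-0.23 ± 0.08), 2 of the 8, against 14.1% of all genes. The 2 drug comparisons and the 2 TAC comparisons share groups and are not independent of each other.

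Across the 12 mice, 3 of the other 7 genes were correlated with Pdk4. The correlation on log2(FPKM + 1) was tested two-sided by 100000 permutations and adjusted over the 7 relations. The permutations ran over all 12 mice without regard to group, so differences between groups count towards these results. The values of r within groups were not tested, and the 8 genes were chosen with earlier results of these data known. For Acot1, Pearson's r was 0.703 (p = 0.0107, adjusted p = 0.0303) and Spearman's rho 0.671 (p = 0.0201, adjusted p = 0.0469). For Angptl4, r was 0.697 (p = 0.0118, adjusted p = 0.0303) and rho 0.685 (p = 0.0169, adjusted p = 0.0469). For Mlycd, r was 0.683 (p = 0.013, adjusted p = 0.0303) and rho 0.699 (p = 0.0141, adjusted p = 0.0469). Without the 2 mice farthest from the median of Pdk4, Sham+control replicate 3 and Sham+pimobendan replicate 2, r was 0.666, 0.695 and 0.614 for Acot1, Angptl4 and Mlycd. With each mouse set against its group mean, r was 0.651 and 0.667 for Acot1 and Angptl4 but 0.299 for Mlycd. With the GC correction the 3 relations gave r of 0.695, 0.681 and 0.652 for Acot1, Angptl4 and Mlycd, each with an adjusted p of 0.0457 by permutation. Ucp3 missed the threshold, with r of 0.622 (p = 0.032, adjusted p = 0.056) and rho of 0.545 (p = 0.0712, adjusted p = 0.125) by permutation, and its r was 0.332 without the 2 farthest mice and 0.737 within groups. Cpt1a had r of 0.401, Ppargc1a 0.0975 and Ppara -0.0489, and their permutation tests gave no call. Ppargc1a gave 0.712 within groups. Ucp3 and Cpt1a, with r of 0.907 over the 12 mice and 0.817 within groups, were the closest pair of the 8. Within groups, Ucp3 and Acot1 gave 0.795, Cpt1a and Acot1 0.747 and Mlycd and Acot1 0.715.

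**Figure D4:**
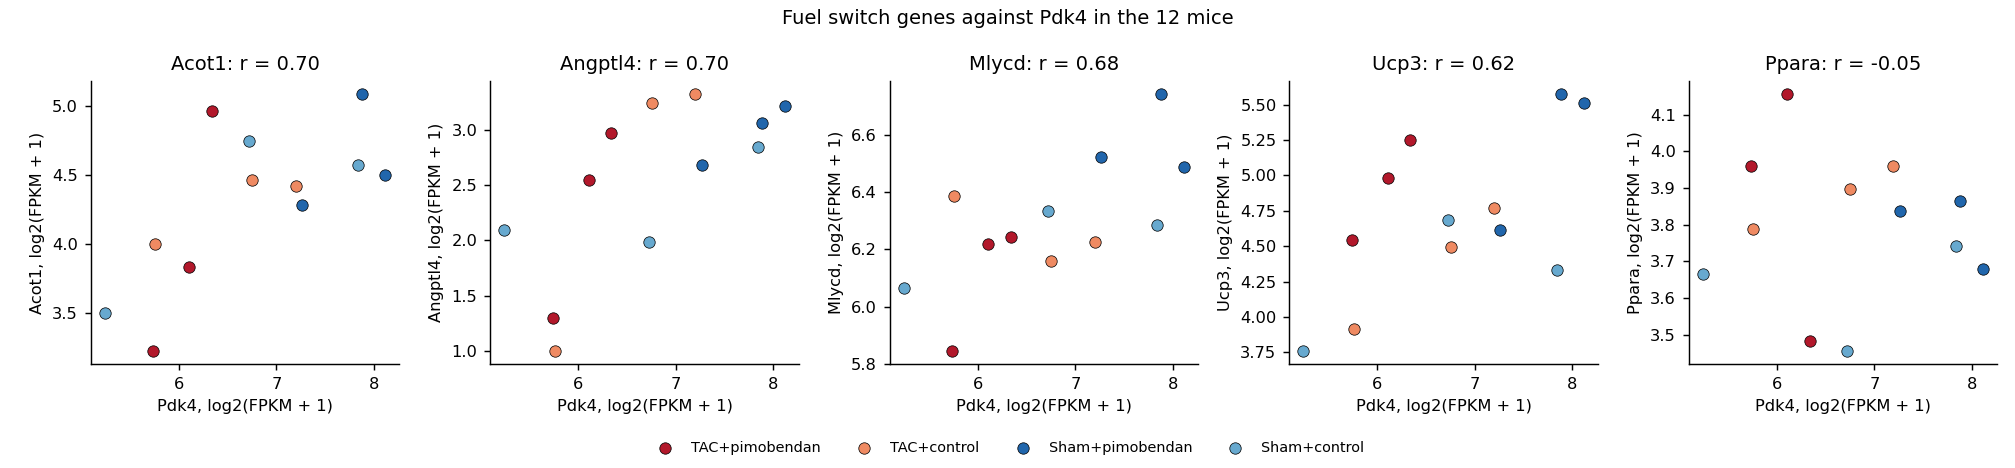
Level of 5 of the genes against Pdk4 on log2(FPKM + 1), 1 point per mouse, coloured by group. Acot1, Angptl4 and Mlycd lie along the level of Pdk4 with Pearson's r of 0.70, 0.70 and 0.68, and Ppara does not, with -0.05.

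Among 7492 genes of at least 5 FPKM on average, the 5 with the highest r with Pdk4 over the 12 libraries were Rraga (0.847), Trafd1 (0.824), Prkag2 (0.822), Cdkn1a (0.813) and Ablim3 (0.805), given as a description. Prkag2 encodes a regulatory subunit of the AMP-activated kinase and Cdkn1a an inhibitor of cyclin-dependent kinases. Cdkn1a ranged over 6.46 to 50.71 FPKM and Rraga only over 32.39 to 40.5 FPKM. Of the 8 genes, Acot1 was exceeded by 39 genes in its r with Pdk4, Angptl4 by 41, Mlycd by 53, Ucp3 by 116, Cpt1a by 825, Ppargc1a by 3131 and Ppara by 4416.

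Other genes of the pathway were taken from 9 lists. Their medians lay between -0.079 and 0.214 in TAC+pimobendan minus TAC+control and between -0.18 and 0.156 in TAC+pimobendan minus Sham+pimobendan, against 0.0954 and -0.00608 for all genes. Of 33 PPAR target enzymes and carriers, 29 were tested and 2 fell in TAC+pimobendan against Sham+pimobendan, where 0.245% of all genes fell, and the median was -0.18. They were Plin5, which coats lipid droplets at mitochondria, with 73.3 ± 14.4 FPKM in TAC+pimobendan and 106.4 ± 5.66 FPKM in Sham+pimobendan (SD, n = 3 each; -0.55 ± 0.13, adjusted p = 0.0386), and the glycerol channel gene Aqp7, with 10.9 ± 1.36 FPKM in TAC+pimobendan and 16.8 ± 1.64 FPKM in Sham+pimobendan (-0.58 ± 0.11, adjusted p = 0.0314). In Sham+control, Plin5 averaged 73.5 FPKM and Aqp7 11.4 FPKM, and in TAC+control 86.7 and 8.70 FPKM. No gene of this list was called with pimobendan after TAC. The 2 with the smallest p there were Acadvl, a dehydrogenase of long-chain fatty acid oxidation, at -0.25 ± 0.07, and Cpt1b at -0.27 ± 0.08, with adjusted p of 0.0619 and 0.0623.

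Of 25 nuclear receptors and coregulators, 2 rose in TAC+pimobendan against TAC+control, where 3.15% of all genes rose. Esrrg, an estrogen-related receptor of oxidative metabolism, had 9.31 ± 0.626 FPKM in TAC+pimobendan and 5.96 ± 0.575 FPKM in TAC+control (0.57 ± 0.12, adjusted p = 0.0409). Gabpa, a transcription factor of mitochondrial genes, had 11.9 ± 1.07 FPKM in TAC+pimobendan and 7.64 ± 0.369 FPKM in TAC+control (0.58 ± 0.12, adjusted p = 0.0409), and it also rose against Sham+pimobendan, where 4.64% of all genes rose (0.55 ± 0.12, adjusted p = 0.0342). In Sham+pimobendan and Sham+control, Esrrg averaged 6.62 and 6.53 FPKM and Gabpa 7.86 and 9.10 FPKM. Of 14 genes of malonyl-CoA control, 1 rose with pimobendan after TAC, the AMP-activated kinase subunit gene Prkaa1 (0.39 ± 0.09, adjusted p = 0.0463 in limma), against 3.15% of all genes. With the block within the TAC groups and the GC correction its change was -0.03, against 0.31 for Esrrg and 0.21 for Gabpa. In that fit Lpl was at 0.565, and Fbxo32 and Nr3c1, given below, at 0.99 and 0.49. None of these genes was called in it. Of 13 genes of lipoprotein lipase and its regulators, 8 were tested, and Lpl rose in TAC+pimobendan against TAC+control, as given above, and against Sham+pimobendan (0.81 ± 0.17, adjusted p = 0.0315), beside 3.15% and 4.64% of all genes. Gpihbp1, which carries the lipase across the capillary wall, had 115.6 ± 17.4 FPKM in TAC+pimobendan and 169.2 ± 2.98 FPKM in Sham+pimobendan (SD, n = 3 each). It was lower by -0.56 ± 0.12 (adjusted p = 0.0314 in limma), as 0.245% of all genes were. TAC+control averaged 116.9 FPKM of Gpihbp1 and Sham+control 136.3 FPKM. The endothelial markers summed to 1160 to 1530 FPKM in TAC+pimobendan and to 1280 to 1460 FPKM in Sham+pimobendan, and their part in that result was not tested.

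Of 26 fasting, FoxO or glucocorticoid responsive genes, 2 rose in TAC+pimobendan against TAC+control, again beside 3.15% of all genes. The ubiquitin ligase gene Fbxo32 had 22.6 ± 4.68 FPKM in TAC+pimobendan and 9.44 ± 3.58 FPKM in TAC+control (SD, n = 3 each; 1.21 ± 0.27, adjusted p = 0.0433). Fbxo32 averaged 19.3 FPKM in Sham+pimobendan and 25.9 FPKM in Sham+control. The glucocorticoid receptor gene Nr3c1 had 16.1 ± 1.505 FPKM in TAC+pimobendan and 10.8 ± 0.494 FPKM in TAC+control (0.54 ± 0.13, adjusted p = 0.0488 in limma). Its mean was 9.71 FPKM in Sham+pimobendan and 12.3 FPKM in Sham+control. Nr3c1 also rose in TAC+pimobendan against Sham+pimobendan (0.67 ± 0.13, adjusted p = 0.0314), while Cebpd, a transcription factor of the acute response, fell to 8.99 ± 0.932 FPKM in TAC+pimobendan, against 16.9 ± 4.40 FPKM in Sham+pimobendan (-0.81 ± 0.17, adjusted p = 0.0314), beside 4.64% of all genes higher and 0.245% lower. Cebpd averaged 9.14 FPKM in TAC+control and 14.6 FPKM in Sham+control. The list's median was 0.193 in TAC+pimobendan minus TAC+control and -0.365 in TAC+control minus Sham+control, against 0.0954 and -0.0565 for all genes. The lists of thioesterases (9 tested of 14), uncoupling proteins and nucleotide carriers (6 of 7) and ketone body genes (7 of 7) had no called gene in any comparison. The adenine nucleotide carrier gene Slc25a5 came nearest, with 260.7 ± 13.8 FPKM in TAC+pimobendan and 335.2 ± 25.4 FPKM in TAC+control (SD, n = 3 each; -0.36 ± 0.09, adjusted p = 0.0502). The other genes of smallest p in this comparison were Vldlr (0.53, adjusted p = 0.080), a lipoprotein receptor gene, Oxct1 (0.22, adjusted p = 0.0889) and Bdh1 (-0.79, adjusted p = 0.267), which encode enzymes of ketone use, the thioesterase genes Acot7 (-0.27, adjusted p = 0.12) and Acot9 (0.19, adjusted p = 0.39), and the carrier gene Slc25a27 (0.29, adjusted p = 0.154), none of them called in limma. All of the calls in these lists were lost with the GC correction and when the groups compared were fitted alone. Those in TAC+pimobendan minus TAC+control were also lost with median-ratio scaling and without TAC+control replicate 3 or TAC+pimobendan replicate 2, and those in TAC+pimobendan minus Sham+pimobendan without replicate 2 or 3 of either group, since 0 genes were then called by limma. With the replicate number as a block over all 4 groups, the 6 calls of the lists in TAC+pimobendan minus TAC+control were lost (adjusted p of 0.0788 to 0.0886 in limma), as were those in TAC+pimobendan minus Sham+pimobendan. With the block within the TAC groups alone the 6 were kept, at an adjusted p of 0.0303 to 0.0456 in limma. That block was chosen after seeing the weak correlation of same-numbered mice of the TAC groups, so the kept calls give no separate support.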

How the data were processed

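Messenger RNA of 12 left ventricles was sequenced on a DNA nanoball platform after oligo(dT) selection, per the labels' protocols. The authors deposited FPKM and TPM per gene, rounded to 2 decimals and without counts, so depth is unknown and no counting interval can be given. Tools listed in the submitters' processing notes, with no role or order, are RSEM 1.2.12, Bowtie2 2.2.5, HISAT2 2.0.4 and DESeq2 1.4.5, beside the build GRCm38. FPKM was analysed as log2(FPKM + 1), which understates changes of low genes, in limma 3.58.1 (R 4.3.3, limma-trend). A gene was tested if 3 or more libraries had 1 FPKM or more of it (11415 genes), in 1 fit of 12 libraries with 8 residual degrees of freedom, with Benjamini-Hochberg adjustment over all tested genes. The limma fit was tried on simulated data with independent noise for each gene and no GC trend. That setting differs from these libraries, so it does not show how far the calls hold. Replicates are separate mice per the labels, and p-values measure the spread between them. Replicate numbers come from the labels, which tie them to no litter, batch or day. The residuals of same-numbered mice correlated in all 3 pairs of TAC+pimobendan with TAC+control (r of 0.101 to 0.208, against -0.172 to 0.0276 for the 6 other pairs), so these were treated as paired in an added alternative, chosen after seeing the data. For same-numbered mice of the other pairs of groups r was -0.44 to 0.253, not over 0.1 throughout. Over all pairs of groups, r averaged -0.0855 for same-numbered mice and 0.0423 for the others, which reached 0.434. Neither the labels nor these values establish a pairing. Relations used Python 3.11.15 with scipy 1.17.1.

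The 8 genes and all lists were chosen with earlier results of these data known. Named genes were the 8, the close paralogs, every called gene of a pathway list, its 2 genes of smallest p in TAC+pimobendan minus TAC+control, and the 5 most like Pdk4. GC content came from transcripts of GRCm38 (16583 genes). Alternatives were scaling, unit, pseudocount, filters, a replicate block, GC correction, the groups alone, a fold threshold and leaving out each library.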

Additional observations from a re-analysis of the deposited data

How the results depend on the processing

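Of 1224 recomputed fold changes of the 8 genes, 1207 stayed on their side of the threshold within the spread of the replicates, 15 lost the call and 2 gained it. The 1207 do not measure robustness, since only 1 of the 56 results was called in the main fit. In pairwise comparisons, leaving out a library of another group cannot change the fold change. Changes of sign also counted as staying. Pdk4 in TAC+control minus Sham+control kept its sign in 16 of 22 alternatives, and Acot1 in the mean of both pimobendan effects in 13 of 21. The lost calls were those of Mlycd in TAC+pimobendan minus Sham+pimobendan, with adjusted p in limma of 0.0617 after quantile normalization, 0.0538 with TPM, 0.0696 without a filter, 0.0743 with the groups alone and 0.282 with GC correction, and in 8 of 12 fits with a library left out: without Sham+control replicate 2, TAC+control replicates 1 or 3, TAC+pimobendan replicates 2 or 3, or any Sham+pimobendan replicate. With the replicate block its adjusted p was 0.0725, and 0.345 with the block and GC correction. The gained calls were Pdk4 in the same comparison without Sham+control replicate 2 (0.049) or 3 (0.0384). Of the 7 relations with Pdk4, that of Ucp3 passed the threshold with median-ratio scaling (r = 0.632, adjusted p = 0.0487 by permutation), and the others kept their side of it under the alternatives tried. So of the 8 genes 1 was called there, 0 with a fold threshold and in the settings above, and 0 to 2 when a library was left out. The causes were not tested.

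Over all genes, TAC+pimobendan minus TAC+control gave 373 calls, 22 with the fold threshold, 1170 with TPM, 1 with the replicate block over all groups, 694 with the replicate block within the TAC groups, 0 with that block and GC correction, and 0 with median-ratio scaling, quantile normalization, no filter, GC correction, both block and GC correction, or the groups alone, and 0 to 1190 when a library was left out. TAC+pimobendan minus Sham+pimobendan gave 558 calls, 51 with the fold threshold, 356 with median-ratio scaling, 298 with quantile normalization and 0 without a filter, with the replicate block, with GC correction, with both or with the groups alone, and 0 to 1225 when a library was left out. TAC+control minus Sham+control gave 0 calls, 2 with the groups alone and 0 to 4 when a library was left out. The interaction gave 0 calls, and 0 to 773 when a library was left out. The mean of both pimobendan effects gave 1 call, 0 with the fold threshold, without a filter, or with GC correction with or without the block, and 0 to 2 when a library was left out. The mean of both TAC effects gave 0 calls, and 0 to 84 when a library was left out. Depth is unknown, and 3 mice per group limit all comparisons.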
